A study of Homo sapiens with 6 samples.

Results

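The mitochondrially encoded genes are the 37 genes of the mitochondrial chromosome, 13 mRNAs, 2 rRNAs and 22 tRNAs, found among 60612 Ensembl gene identifiers as those whose symbol starts with MT-. RNA sequencing counted them in U937 cells, an established human myeloid line that the labels describe as acute myeloid leukemia, genotype WT. Cells in RPMI-1640 medium without serum received 1 µM of a compound named B2, or DMSO as its vehicle, for 36 h, with 3 libraries per group numbered 1 to 3. The serum-free medium was common to both groups, and the labels do not describe B2 further. The series title names S100A9 as the target, and the comparison asks what B2 does to gene expression. Whether the 3 libraries of a group were grown as separate cultures is not stated, so the p-values reflect only how these libraries vary, and that variation may be technical.

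The mitochondrial genome is transcribed from both of its strands as long precursor RNAs. Most genes lie on the transcript of the heavy strand, which here means the plus strand of the reference sequence, and MT-ND6 with 8 of the tRNAs lies on the light-strand transcript. The tRNAs sit between the mRNAs and rRNAs, and cutting them out of the precursor frees the RNAs on either side. The mRNAs encode subunits of respiratory complexes I, III and IV and of the ATP synthase, while the rRNAs and tRNAs serve the ribosome inside the organelle that translates them. POLRMT transcribes the genome with TFAM and TFB2M, and LRPPRC with SLIRP stabilizes the mRNAs.

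Library totals ran from 61150740 to 78431054 counts, and each of the 37 genes had counts in all 6 libraries and passed the filter on low counts. Of the 11 markers listed for a myeloid leukemia line, all were detected, with MPO the lowest at 17 to 122 counts. The libraries numbered 3 stood apart in both groups in macrophage markers. Of the 8 listed, MRC1 was at 0 and MSR1 had 4 counts over all libraries. The 6 that passed the filter summed to 1475 CPM (counts relative to the scaled library total) in B2 replicate 3. The sum was 1678 in DMSO replicate 3, against 67.5 to 139 in the other 4 libraries. Epithelial markers (7 of 7 detected) summed to 40.2, 40.8 and 50.2 CPM in B2 replicates 1 to 3 and to 3.03, 10.4 and 35.3 CPM with DMSO. T cell markers summed to 0.203 to 4.82 CPM with CD3D, CD3E and CD3G at 0, and B cell markers to 19.6 to 26.4 CPM with MS4A1 at 0. The part of these markers in the mitochondrial values was not tested. DMSO replicate 1 needed the smallest scaling factor, 0.862 against 0.99 to 1.07 in the rest. Across 17015 genes with a known base composition, the deviation of a library from the mean of all 6 followed GC content with Spearman coefficients of 0.49 in DMSO replicate 1 and -0.57 in DMSO replicate 2, and between -0.28 and 0.21 in the other 4.

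Transfer RNA genes differed most in level, and the following sequences show the 4 neighbouring light-strand tRNAs that held most tRNA counts, the next light-strand tRNA in level, and the heavy-strand tRNA that ends 7 bases before MT-TA and had the lowest level. They are read 5′ to 3′ from the GENCODE 29 transcripts (GRCh38), with the anticodon, found by search, in capitals. MT-TA (alanine) lies at chrM:5587-5655, MT-TN (asparagine) at chrM:5657-5729, MT-TC (cysteine) at chrM:5761-5826, MT-TY (tyrosine) at chrM:5826-5891 and MT-TS1 (serine) at chrM:7446-7514, all on the light-strand transcript, and MT-TW (tryptophan) at chrM:5512-5579 on the heavy-strand transcript.
MT-TA: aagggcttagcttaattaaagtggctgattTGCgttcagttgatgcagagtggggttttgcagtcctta
MT-TN: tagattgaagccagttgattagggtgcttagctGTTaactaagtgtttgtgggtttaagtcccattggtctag
MT-TC: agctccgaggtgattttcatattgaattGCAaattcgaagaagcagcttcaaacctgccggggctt
MT-TY: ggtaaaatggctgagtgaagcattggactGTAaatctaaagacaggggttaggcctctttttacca
MT-TS1: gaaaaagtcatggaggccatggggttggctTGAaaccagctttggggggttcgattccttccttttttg
MT-TW: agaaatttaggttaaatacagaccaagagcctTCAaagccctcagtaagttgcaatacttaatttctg

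Members also overlap, which makes their counts uncertain, since the authors' counting could share, split or drop reads there. MT-ATP8 and MT-ATP6, subunits of the ATP synthase, share 46 bases at chrM:8527-8572 on the same strand. The shared stretch is shown because it opens with the start codon of MT-ATP6 and closes with the stop codon of MT-ATP8, both in capitals.
MT-ATP8 and MT-ATP6 shared stretch: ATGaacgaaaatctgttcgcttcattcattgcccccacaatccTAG
MT-ND4L and MT-ND4 share 7 bases, MT-TI and MT-TQ share 3 on opposite strands, and MT-ATP6 with MT-CO3 and MT-TC with MT-TY share 1 base each. The strand setting of the counting is not given in the sources used here, so reads from a light-strand gene and from the heavy-strand precursor across the same bases cannot be told apart.

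Mitochondrially encoded genes held 8.98%, 7.75% and 8.36% of all counts in the B2 libraries numbered 1, 2 and 3, and 10.3%, 8.004% and 6.44% in the DMSO libraries. The DMSO libraries were both the highest and the lowest of the 6, and the B2 libraries lay between them. In bulk libraries such as these, fewer cells of a type and less RNA per cell cannot be told apart. The mRNAs made up most of the share, with 7.61%, 6.59% and 7.08% of counts with B2 and 8.36%, 6.70% and 5.52% with DMSO. Their mean was 7.09% ± 0.513 with B2 and 6.86% ± 1.43 with DMSO (SD, n = 3 each), a difference of 0.234 percentage points (two-sided exact permutation p = 0.9). The rRNAs held 1.28%, 1.09% and 1.20% with B2 and 1.83%, 1.23% and 0.850% with DMSO. Their difference was -0.113 percentage points (exact permutation p = 0.8). The tRNAs held 0.0864%, 0.0745% and 0.0759% with B2 and 0.0944%, 0.0722% and 0.0691% with DMSO, and the exact permutation p was 1.0. With 3 libraries against 3 the smallest p this test can give is 0.1, and over the 8 shares and ratios tested each adjusted p was 1.0. Without both libraries numbered 3 the mRNA difference turned to -0.431 percentage points.

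**Figure D1:**
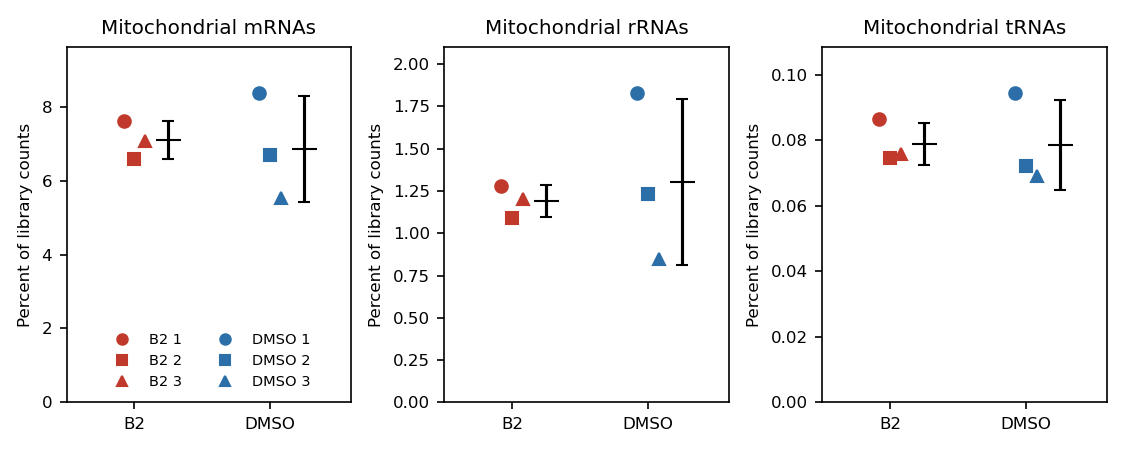
Percent of each library's counts in mitochondrial mRNAs, rRNAs and tRNAs (y axes, each from 0) in the B2 and DMSO libraries, with symbols for replicate numbers 1 to 3 and black bars for the mean ± SD (n = 3). DMSO replicate 1 is highest and DMSO replicate 3 lowest in all 3 classes, with the B2 libraries between them.

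Differences in class share between same-numbered libraries did not have 1 direction in any of the 3 classes. As B2 minus DMSO, the mRNA share differed by -0.749, -0.113 and 1.56 percentage points at numbers 1, 2 and 3. For rRNAs the values were -0.549, -0.140 and 0.350. For tRNAs they were -0.00796, 0.00224 and 0.00682.

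Scaled by gene length, as CPM per kb of gene (from library totals, without scaling factors), the mRNA with the highest mean level over the 6 libraries was MT-CO3, a core subunit of cytochrome c oxidase (complex IV), at 13898. MT-ATP8 (11651), MT-CO1, the catalytic subunit of complex IV (11454), MT-CO2 (9227), MT-ATP6 (9005), MT-ND4L (8136) and MT-ND4 (7267) followed, the last pair being complex I subunits. Lower levels were found for the complex I subunits MT-ND1 (4492), MT-ND2 (3055), MT-ND5 (1805) and MT-ND6 (1721), for MT-CYB, cytochrome b of complex III (1628) and for the complex I subunit MT-ND3 (1195). Several neighbours in this order could not be separated by their spread: MT-ATP8 exceeded MT-CO1 in 2 of 6 libraries, MT-CO2 exceeded MT-ATP6 in 3 of 6 and MT-ND6 exceeded MT-CYB in 2 of 6. Between MT-ND2 and MT-ND5 the ranges did not overlap, with 2304 to 3978 above 1494 to 2071. MT-ATP8 over MT-ATP6 ranged from 1.22 to 1.39, and MT-ND4L over MT-ND4 from 1.03 to 1.20. The genes of each of these pairs overlap and are translated from a shared mRNA. MT-CO1 over MT-CO2 ranged more widely, from 0.891 in DMSO replicate 1 to 1.58 in DMSO replicate 3.

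**Figure D2:**
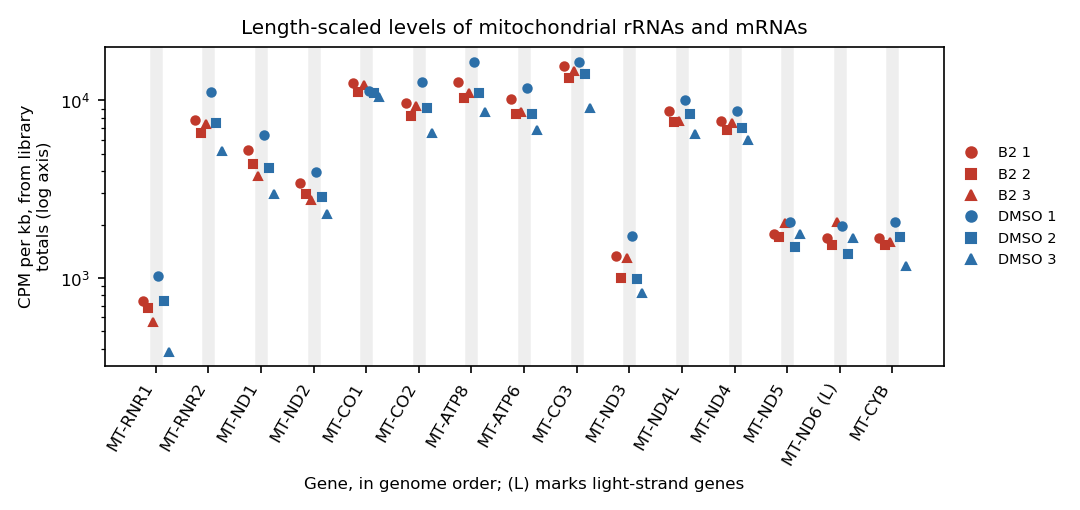
Length-scaled level (CPM per kb, log axis) of the rRNAs and mRNAs in genome order, with red symbols for B2 libraries, blue for DMSO and shapes for replicate numbers. MT-RNR2 lies about as high as the complex I mRNA MT-ND4 on average (7573 against 7267), while MT-RNR1 (690) is below all mRNAs in the mean.

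By counts, complex IV mRNAs took 46.8% to 51.8% of all mitochondrial mRNA counts and complex I mRNAs 34.0% to 36.7%. The ATP synthase mRNAs took 11.5% to 13.6% and MT-CYB 2.41% to 2.88%. Within complex IV, MT-CO1 alone ranged from 20.9% of mRNA counts in DMSO replicate 1 to 29.1% in DMSO replicate 3. Complex IV mRNAs made up 50.8% ± 0.854 with B2 and 49.4% ± 2.29 with DMSO (SD, n = 3 each; exact permutation p = 0.4). MT-CO1 ranked 1 or 2 among all genes by counts in each library, with 1132016 to 1392443 counts. MT-ND6, the light-strand mRNA, gave 1.17, 1.24 and 1.56 counts per 100 counts of the 12 heavy-strand mRNAs in B2 replicates 1 to 3, and 1.25, 1.09 and 1.63 with DMSO. The libraries numbered 3 had the highest ratio in both groups, and the groups overlapped, with a log2 difference of 0.01 (exact permutation p = 1.0). Per 100 counts of the heavy-strand MT-ND5 alone the libraries differed less. MT-ND6 then gave 27.4, 26.4 and 29.6 counts in B2 replicates 1 to 3, and 27.6, 26.6 and 27.7 with DMSO.

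MT-RNR2, the large-subunit (16S) rRNA, exceeded MT-RNR1, the small-subunit (12S) rRNA, in each library. Per length the excess was 10.5-fold, 9.73-fold and 12.9-fold in B2 replicates 1 to 3 and 10.8-fold, 10.0-fold and 13.6-fold with DMSO. The rRNAs are transcribed together from neighbouring genes, and the sources used here do not say whether rRNA was depleted before sequencing. The rRNAs gave 16.8, 16.6 and 16.9 counts per 100 mRNA counts in the B2 libraries, and 21.9, 18.4 and 15.4 with DMSO. The B2 libraries were nearly equal and lay within the DMSO range. The log2 ratio differed by -0.13 between the groups (exact permutation p = 0.5), and a test of the difference in spread was not made.

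Transfer RNA counts came mostly from the light-strand genes, which held 89.9% to 92.4% of tRNA counts. This share was 90.7% ± 1.17 with B2 and 91.6% ± 1.14 with DMSO (SD, n = 3 each; exact permutation p = 0.2, adjusted p = 1.0 over the 8 tests). As B2 minus DMSO it differed by -0.105, -0.0481 and -2.54 percentage points at numbers 1, 2 and 3, lower with B2 in 3 of 3 pairs, and an exact sign-flip test of the pairs gave p = 0.25, the smallest it can give. The 4 neighbours MT-TA, MT-TN, MT-TC and MT-TY alone held 73.5% to 78.5%. Their mean length-scaled levels were 1407, 2409, 2359 and 2673. The next were MT-TS1 (946), which follows the 3′ end of MT-CO1 on the other strand, MT-TP for proline (521), and the heavy-strand MT-TL1 for leucine (428), which separates MT-RNR2 from MT-ND1. MT-TE for glutamate stood at 158 and MT-TT for threonine at 84.8. The remaining 13 tRNAs lay between 12.4 (MT-TW) and 62.3 (MT-TF). Among these 13 most neighbours in the order overlapped in range, and their counts were 46 to 419 per library. The median level was 1177 for the 8 light-strand tRNAs and 46.0 for the 14 heavy-strand tRNAs. MT-TQ for glutamine, a light-strand gene, was an exception at 24.1. MT-TY was 162 to 269 times as high as MT-TW per length, with MT-TA, MT-TN and MT-TC lying between them on the chromosome. Gene lengths of 59 to 75 bases are short, and no correction for fragment length was possible, so these levels compare tRNAs with each other better than with mRNAs.

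**Figure D3:**
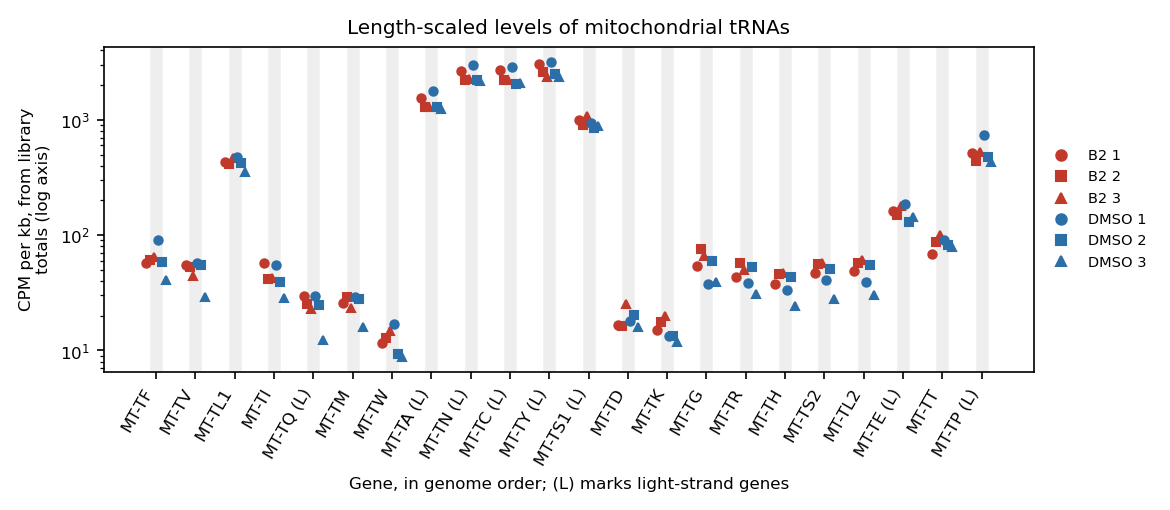
Length-scaled level (CPM per kb, log axis) of the 22 tRNAs in genome order, with (L) for light-strand genes, red for B2, blue for DMSO and shapes for replicate numbers. MT-TA, MT-TN, MT-TC and MT-TY form the high block. The points of the 2 groups overlap for each gene except MT-TK, with B2 at 15.1 to 19.9 and DMSO at 11.8 to 13.2. In CPM from scaled totals the groups overlap for MT-TK too.

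The nuclear genome holds copies of mitochondrial genes, and reads of the original can be assigned to a near-identical copy. The table lists 417 such copies, of which 380 had no counts. MTATP6P1 (chr1:633696-634376), which differs from MT-ATP6 at 10 of 681 bases (98.5% identity), had 61701 to 86584 counts, equal to 16.3% to 17.5% of those of MT-ATP6. MTND2P28 had 17.0% to 18.7% of the counts of MT-ND2, and MTCO1P12 had 1.21% to 1.31% of those of MT-CO1. These 3 copies held 99.2% of all counts on copies, and each kept a nearly fixed ratio to its original across the 6 libraries. The levels of MT-ATP6 and MT-ND2 may be understated by these amounts. Adding the copy's counts to the original changed the direction of B2 against DMSO in 0 of 3 genes.

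None of the 37 mitochondrially encoded genes passed edgeR's test for a difference with B2. With that quasi-likelihood test over 17224 genes, 0 of 37 had an adjusted p below 0.05 and each adjusted p was 1.0, while 0% of all tested genes were called. At an unadjusted p below 0.05 there were 0 members, against 85 genes or 0.493% of those tested. DESeq2 also called 0 members. In CPM, B2 libraries were all above or all below the DMSO libraries in 0 members, where 1.94% and 1.63% of tested genes were. From library totals alone, all B2 libraries were above all DMSO libraries for MT-TK, which had 60 to 85 counts. In CPM its groups overlapped, with B2 replicate 1 at 1.03 and DMSO replicate 1 at 1.07. The share of all tested genes on that scale was not computed. The log2 estimates, B2 over DMSO, were positive for 14 members and negative for 23, with a median of -0.06 beside -0.08 for all tested genes. The 95% interval stayed within 2-fold either way for 23 of 37 members (12 of 13 mRNAs, 0 of 2 rRNAs, 11 of 22 tRNAs), against 36.6% of all tested genes. With library totals in place of TMM factors, the median of all genes moved from -0.08 to 0.0006 and 25 members were positive, so no direction is read from these small values.

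Among the complex IV mRNAs, MT-CO1 stood at 18858, 16018 and 19015 CPM in B2 replicates 1 to 3 and at 20272, 15887 and 16213 CPM with DMSO. The groups overlapped, with a log2 fold change of 0.04 (SE 0.27). MT-CO2, the subunit that accepts electrons from cytochrome c, stood at 6418, 5177 and 6386 CPM with B2 and at 10093, 5761 and 4556 CPM with DMSO (log2 ratio -0.18, SE 0.35). MT-CO3 stood at 11950, 9734 and 11602 CPM with B2 and at 15061, 10342 and 7152 CPM with DMSO (log2 ratio 0.03, SE 0.33). For all 3 genes the DMSO libraries spanned the B2 libraries on both sides.

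The 7 complex I mRNAs had negative estimates between -0.16 (MT-ND4L) and -0.03 (MT-ND6). MT-ND1, a membrane subunit near the ubiquinone site, stood at 4877, 3922 and 3632 CPM with B2 and at 7099, 3714 and 2875 CPM with DMSO (log2 ratio -0.14, SE 0.38). MT-ND4, a proton-pumping subunit, stood at 10328, 8697 and 10308 CPM with B2 and at 14007, 8926 and 8361 CPM with DMSO (-0.09, SE 0.30). DMSO replicate 1 was the highest library for both, and DMSO replicate 3 the lowest. MT-ND5, another proton-pumping subunit, stood at 3132, 2858 and 3715 CPM with B2 and at 4356, 2523 and 3233 CPM with DMSO (-0.06, SE 0.30), so here DMSO replicate 2 was lowest. MT-ND2 (-0.11), MT-ND3 (-0.08) and MT-ND6 (-0.03) also had overlapping groups.

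Of the ATP synthase mRNAs, MT-ATP6, part of the proton channel, stood at 6715, 5319 and 5915 CPM with B2 and at 9311, 5303 and 4660 CPM with DMSO (log2 ratio -0.10, SE 0.33). MT-ATP8 had an estimate of -0.19 (SE 0.35), and its 46 shared bases make it less certain. MT-CYB stood at 1874, 1640 and 1847 CPM with B2 and at 2754, 1800 and 1342 CPM with DMSO (-0.14, SE 0.32). For each of these genes the highest library was DMSO replicate 1.

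The rRNAs had the lowest estimates outside the tRNAs. MT-RNR1 stood at 687, 602 and 548 CPM with B2 and at 1139, 659 and 370.0 CPM with DMSO (log2 ratio -0.24, SE 0.40). MT-RNR2 stood at 11752, 9575 and 11562 CPM with B2 and at 20069, 10820 and 8212 CPM with DMSO (-0.25, SE 0.37). DMSO replicate 1 was far above the other 5 libraries in both rRNAs and DMSO replicate 3 was the lowest.

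The tRNA estimates were positive for 12 and negative for 10, with a median of 0.02. The most abundant, MT-TY, stood at 194, 159 and 158 CPM with B2 and at 244, 154 and 157 CPM with DMSO (log2 ratio -0.12, SE 0.28). The estimates were -0.17 for MT-TA, -0.14 for MT-TN and -0.09 for MT-TC, and the lowest was -0.26 for MT-TP (SE 0.34). MT-TG, the glycine tRNA, had the highest estimate, 0.45 (SE 0.32), and the smallest p of all members (edgeR unadjusted p = 0.204). It stood at 3.56, 4.82 and 4.52 CPM with B2 and at 2.99, 3.79 and 2.68 CPM with DMSO, so that B2 replicate 1 lay below DMSO replicate 2. MT-TG and MT-TL2 were higher with B2 in each same-numbered pair, 2 of 37 members where 6.71% of tested genes were. No member was lower in each pair, where 9.12% of tested genes were.

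Within same-numbered pairs most members were lower with B2 at number 1 and all were higher at number 3, with mixed directions at number 2. At number 1, 35 of 37 members were lower with B2 and the median log2 difference was -0.44. At number 2, 25 were higher (7 of 13 mRNAs, 0 of 2 rRNAs, 18 of 22 tRNAs) and the median was 0.04. At number 3, 37 of 37 were higher and the median was 0.46. Of all 17224 tested genes, 9093, 8338 and 8115 were higher with B2 at numbers 1, 2 and 3, with medians of 0.06, -0.02 and -0.02. With the replicate number as a block, 0 of 37 members were called by edgeR (adjusted p = 1.0 for each), and 0 had an unadjusted p below 0.05 against 1.32% of tested genes. Without DMSO replicate 1 all 37 estimates were positive, with an mRNA median of 0.23. Without DMSO replicate 3, 7 were positive and the mRNA median was -0.30. Omission of DMSO replicate 1 changed the sign of 23 of 37 estimates, and omission of DMSO replicate 3 that of 7. Leaving out DMSO replicate 2, or any 1 of the B2 libraries, changed 6 each time. Library totals in place of TMM factors changed 11.

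**Figure D4:**
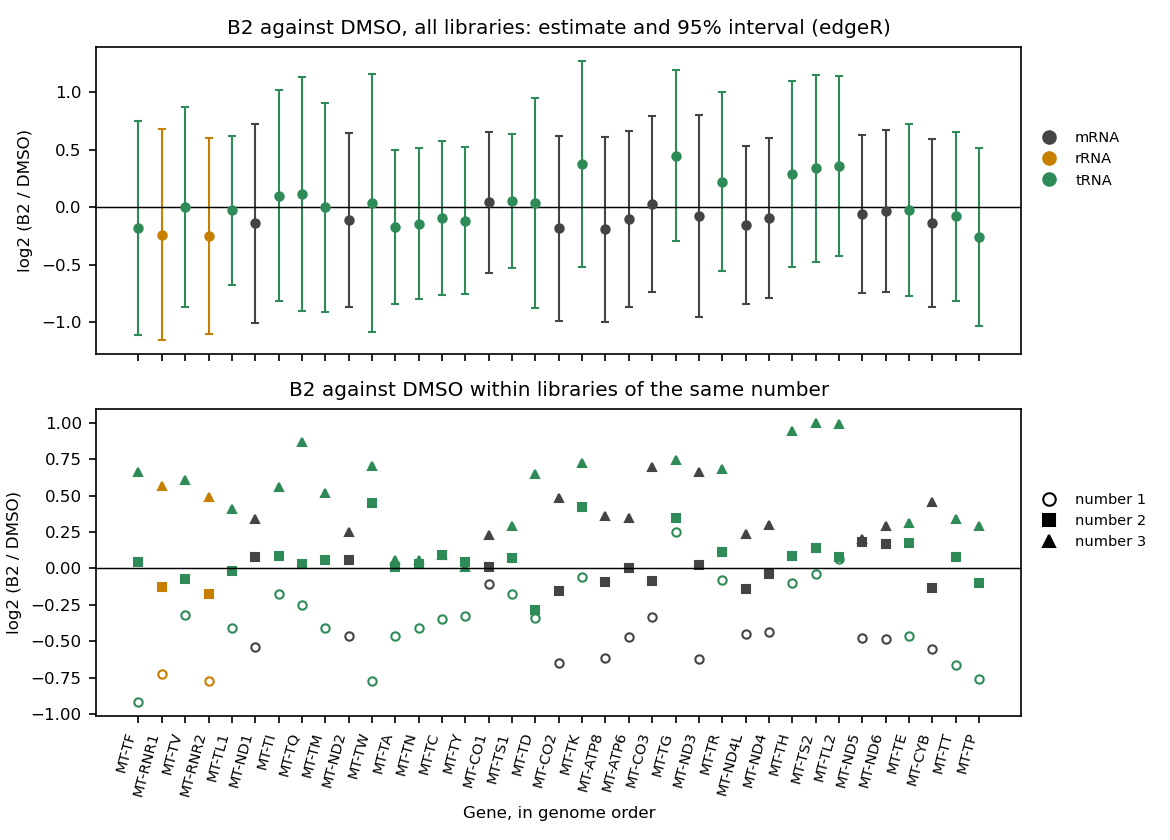
Log2 of B2 over DMSO for the 37 genes in genome order, as the edgeR estimate with its 95% interval over all libraries (top) and within libraries of the same number (bottom, open circles for number 1, squares for 2, triangles for 3), coloured by RNA class. All intervals include 0, and the points of number 1 lie mostly below 0 and those of number 3 above.

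DMSO replicate 1 was the highest library in CPM for 13 of 13 mRNAs, 2 of 2 rRNAs and 15 of 22 tRNAs, where it was highest for 24.9% of all tested genes. DMSO replicate 3 was the lowest for 10 of 13 mRNAs, 2 of 2 rRNAs and 12 of 22 tRNAs, where it was lowest for 11.0% of all tested genes. The highest library exceeded the lowest by 1.28-fold (MT-CO1) to 2.47-fold (MT-ND1) among mRNAs and by 3.08-fold for MT-RNR1. These tallies depend on the scaling factors. From library totals alone DMSO replicate 1 was highest for 11 of 13 mRNAs, 2 of 2 rRNAs and 10 of 22 tRNAs, against 15.3% of all tested genes, with MT-CO1 highest in B2 replicate 1 and MT-ND6 in B2 replicate 3. On that scale DMSO replicate 3 was lowest for 11 of 13 mRNAs, 2 of 2 rRNAs and 17 of 22 tRNAs, against 10.5% of all tested genes. The part of GC content in this spread was not tested.

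In CPM, the 7 tRNAs that were not highest in DMSO replicate 1 were MT-TD, MT-TK, MT-TG, MT-TR, MT-TH, MT-TS2 and MT-TL2, picked out after their values were seen. These 7 are the heavy-strand tRNAs that lie in chrM:7518-12336. This stretch begins just past MT-TS1 (chrM:7446-7514), which follows MT-CO1, and runs to the start of MT-ND5. They carry aspartate, lysine, glycine, arginine, histidine, serine and leucine. From library totals alone MT-TI, MT-TQ, MT-TM, MT-TS1 and MT-TT joined them. All of these lie outside that stretch, and MT-TQ and MT-TS1 are light-strand genes. The common strand and stretch therefore hold in CPM only. MT-TS2 stood at 2.72, 3.08 and 3.38 CPM with B2 and at 2.79, 2.79 and 1.67 CPM with DMSO, so DMSO replicate 1 lay inside the range of the others. The median GC content of the 7 was 32.9% (23.1% to 45.8%), against 41.1% (28.99% to 49.3%) for the other 15 tRNAs. The part of strand, position and GC content in the pattern was not tested. Counts of 60 to 352 make the values of the 7 less exact.

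Replicate numbers were compared with treatment as a term, since number 3 differed widely in nuclear genes. Of 17224 genes, 461 or 2.68% passed edgeR's test between numbers at an adjusted p below 0.05, and 0 of 37 members did. The smallest adjusted p of a member was 0.196 (edgeR) for MT-ND1, and MT-ND1 and MT-RNR1 were the members with an unadjusted p below 0.05, 2 of 37 where 21.8% of tested genes were. DESeq2 called 0 members as well. Without B2 replicate 1 the same test called 14 of 37 members, namely both rRNAs and each mRNA except MT-CO1, and 4124 of 18029 genes (22.9%). Number 1 is then DMSO replicate 1 alone, which stood apart as given above, and that library is assumed to vary like the others. Both libraries numbered 3 were below the other 4 for MT-ND1, MT-RNR1, MT-TV and MT-TM, 4 of 37 members where 12.1% of tested genes were. They were above the other 4 for 0 members, where 12.3% of tested genes were.

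Relative to the mean of replicates 1 and 2 of its own group, DMSO replicate 3 was lower for 15 of 15 rRNAs and mRNAs, with a median log2 difference of -0.75. DMSO replicate 1, the highest library for all 15, raises that mean. Against DMSO replicate 2 alone, DMSO replicate 3 was higher for MT-CO1 (16213 against 15887 CPM), MT-ND5 (3233 against 2523) and MT-ND6 (895 against 671). By the same measure against the mean, B2 replicate 3 was lower for 5 of 15, with a median of 0.10. The share of all tested genes on this measure was not computed. MT-RNR1, near its start, was at -1.28 with DMSO and -0.24 with B2, and MT-ND1 at -0.91 and -0.28. MT-ND5 was at -0.09 with DMSO and 0.31 with B2, and MT-ND6 at -0.07 and 0.45. MT-CYB, which follows MT-ND6, was at -0.76 and 0.07. The Spearman coefficient with start position over the 15 genes was 0.61 with DMSO and 0.50 with B2, and with GC content -0.27 and -0.25. Overlapping genes and shared libraries make the 15 points dependent, and macrophage markers moved with number 3 as given above; their part in this was not tested.

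**Figure D5:**
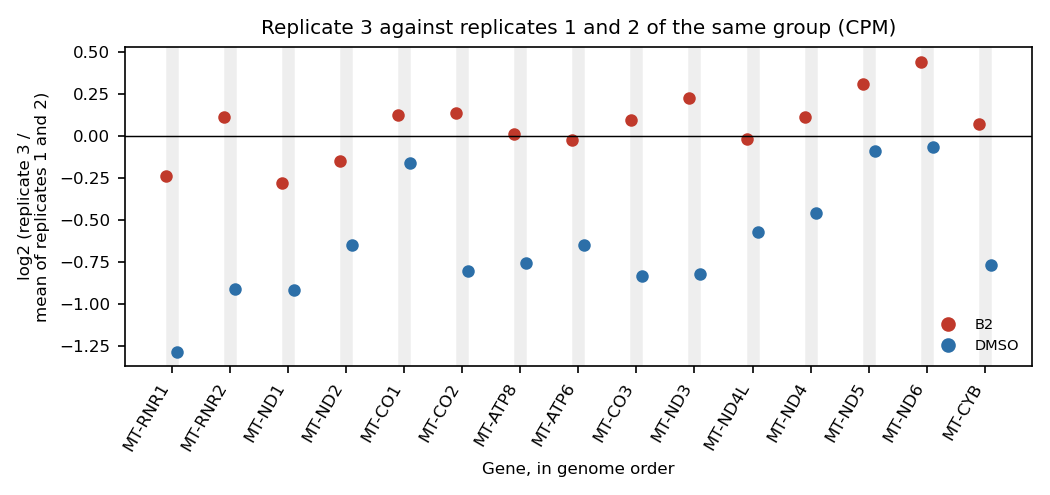
Log2 of replicate 3 over the mean of replicates 1 and 2 of the same group, from CPM, for the rRNAs and mRNAs in genome order, with red points for B2 and blue for DMSO. The blue points lie below 0 for all 15 genes and closest to it for MT-ND6 and MT-ND5, and the red points are highest for the same 2 genes.

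Nuclear genes that make, process or use mitochondrial RNA were read from the same edgeR test, where 0% of tested genes were called. Of 40 genes for mitochondrial transcription and RNA handling, 0 were called, with 11 positive and 29 negative estimates and a median of -0.13 beside -0.08 for all tested genes. TFAM, which packages the mitochondrial genome and starts its transcription, stood at 13.2, 17.2 and 14.9 CPM with B2 and at 15.9, 34.4 and 18.2 CPM with DMSO (log2 ratio -0.60, SE 0.36). DMSO replicate 2 was far above the others, and B2 replicate 2 lay above DMSO replicate 1. The estimates were -0.30 for LRPPRC, -0.13 for the RNA polymerase POLRMT, -0.55 for TFB2M, which opens the promoter with it, and -0.55 for the tRNA methyltransferase NSUN3. Between replicate numbers PRORP, the nuclease subunit that cuts the 5′ ends of mitochondrial tRNAs, was the called gene of this list, 1 of 40 where 2.68% of tested genes were, at 9.59, 30.6 and 24.9 CPM for numbers 1, 2 and 3 (edgeR adjusted p = 0.0428).

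The 17 genes of mitochondrial DNA replication and packaging had 0 called, 3 positive, 14 negative and a median of -0.10, with RNASEH1 at 0.30, DGUOK at -0.23 and DNA2 at -0.33 having the smallest p. Of the 12 tested regulators of mitochondrial biogenesis 0 were called, with 3 positive, 9 negative and a median of -0.17, and beside TFAM the smallest p belonged to the kinase subunit PRKAA1 (-0.42) and the coactivator PPARGC1B (0.44). The 22 genes that charge mitochondrial tRNAs had 0 called, 11 positive, 11 negative and a median of -0.01, with FARS2 at -0.39, VARS2 at -0.22 and WARS2 at -0.22. Of 78 mitochondrial ribosomal proteins 0 were called, with 11 positive, 67 negative (85.9%, against 62.1% of all tested genes) and a median of -0.13. Within pairs, 9093, 8338 and 8115 of 17224 tested genes were higher with B2 at numbers 1, 2 and 3. Of the 78 ribosomal protein genes, 16 were higher at number 1, with a median of -0.34. At numbers 2 and 3 this list had 45 and 46 higher, with medians of 0.09 and 0.06. Its summed level was 4694 CPM in DMSO replicate 1 and 3351 to 3574 CPM in the other 5 libraries. In this list MRPL53 (0.52), MRPL47 (-0.45) and MRPL50 (-0.45) had the smallest p. MRPL50 stood at 7.12, 6.86 and 7.08 CPM with B2 and at 8.56, 9.58 and 10.7 CPM with DMSO, without overlap. MRPL53 stood at 14.5, 14.9 and 12.2 CPM with B2 and at 9.04, 11.0 and 8.89 CPM with DMSO, also without overlap. Of the 78, 2 lay wholly above and 2 wholly below, where 1.94% and 1.63% of all tested genes did.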

How the data were processed

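The authors deposited a table of estimated counts (expected counts, whole numbers, not normalized) for 60612 Ensembl identifiers in 6 libraries. HISAT2 2.0.4 aligned the reads, per the submitters' processing notes. How reads were assigned to genes, on which build and annotation and with which strand setting, is not given in the sources used here. Value 4 occurred 6465 times against 3144 for 3 and 2022 for 5, so low counts are less exact, and counts divided by 4 were an alternative. Symbols came from a gene name table for 60401 identifiers and from GENCODE 29 for 187. Positions, lengths and sequences of members are from GENCODE 29 (GRCh38), for 37 of 37.

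Shares are percent of the library total. Genes were kept by filterByExpr (minimum count 10, minimum total 15), scaled by TMM and tested for treatment alone with the quasi-likelihood functions glmQLFit and glmQLFTest of edgeR 4.0.16 (R 4.3.3). Benjamini-Hochberg adjustment ran over all 17224 tested genes, with a threshold of 0.05. CPM use TMM-scaled totals. SE came from the coefficient and its F statistic. Shares and ratios were compared by exact permutation (scipy 1.17.1). The fits were also run on simulated counts, with the same variability for all genes and no GC trend. Such counts are simpler than the real ones, so they do not show how well the fits work here. Alternatives were RLE factors, library totals, scaling by nuclear genes, 2 other filters, DESeq2 1.42.0, counts divided by 4, omission of each library in turn and the replicate block. The omission of both libraries numbered 3 and the addition of counts of chromosome 1 copies were chosen after seeing the data.

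Same-numbered libraries deviated together from the means of their groups, with correlations across genes that stood at 0.21, 0.40 and 0.50 for numbers 1, 2 and 3, each above 0.1, so equal numbers were treated as pairs. The pairing is read from the data only, as no label explains the numbers. Named were all members, the 3 genes of each pathway list with the smallest p, and TFAM, POLRMT and LRPPRC. From the list of nuclear copies (14 tested, 0 called, 6 positive, 8 negative, median -0.07) the 3 with the most counts were named instead, chosen after their values were seen. Members, lists and tests were chosen with earlier results of these data known.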

Additional observations from a re-analysis of the deposited data

How the results depend on the processing

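The count of members called between B2 and DMSO was 0 in all 15 other settings, the replicate block included. Over all genes DESeq2 called 3 (main 0), and leaving out 1 library gave 0 to 1. Between replicate numbers the 461 genes became 956 with RLE factors, 266 with library totals, 2078 with the stricter filter, 1671 with DESeq2 and 2379 with counts divided by 4. Leaving out 1 library gave 388 to 4124 genes and 0 to 14 members. The exact sign-flip p under the replicate block was 1.0 for the mRNA share (difference 0.234) and cannot fall below 0.25 with 3 pairs; it changed no other call. Leaving out 1 library moved the difference in share from -0.437 to 0.984 percentage points for mRNAs, from -0.339 to 0.150 for rRNAs and from -0.00438 to 0.00828 for tRNAs, and the log2 ratio of MT-ND6 to the other mRNAs from -0.12 to 0.17. Without both libraries numbered 3 the tRNA difference was -0.00286 and the mRNA difference -0.431.

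No estimate of a member was called, 32 of 37 changed sign under some setting, and 5 kept it. The 5 were the heavy-strand tRNAs MT-TK, MT-TG, MT-TR, MT-TS2 and MT-TL2, all positive, with 60 to 352 counts a library. Log2 estimates that turned positive with library totals were MT-TT 0.0152, MT-ND6 0.0729, MT-ND2 0.0038, MT-TL1 0.0695, MT-ND5 0.0448, MT-TM 0.101, MT-ATP6 0.0114, MT-TE 0.0814, MT-ND3 0.0446, MT-TC 0.0184 and MT-ND4 0.0115. With the replicate block they were MT-TM 0.0545, MT-TE 0.0096 and MT-ND3 0.0228. MT-TV turned to -0.0196 with RLE factors, -0.0004 with nuclear scaling, -0.0011 without a filter, -0.0109 with the stricter filter and -0.0154 with DESeq2. With counts divided by 4, MT-TW was -0.0076 and MT-TM 0.0017. Without both libraries numbered 3, MT-TW was -0.28, MT-TQ -0.13, MT-TS1 -0.0674, MT-TI -0.0723, MT-CO3 -0.23, MT-TD -0.32, MT-TV -0.21, MT-TH -0.0015 and MT-CO1 -0.0522.

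Leaving out 1 library gave these ranges of log2 estimates, listed for all members but MT-TH and the 5 that kept their sign. For mRNAs they were MT-ND1 -0.38 to 0.34, MT-ND2 -0.30 to 0.26, MT-ND3 -0.30 to 0.45, MT-ND4 -0.23 to 0.19, MT-ND4L -0.32 to 0.13, MT-ND5 -0.26 to 0.18, MT-ND6 -0.25 to 0.22, MT-CO1 -0.0527 to 0.17, MT-CO2 -0.40 to 0.23, MT-CO3 -0.20 to 0.36, MT-ATP6 -0.29 to 0.28, MT-ATP8 -0.40 to 0.24 and MT-CYB -0.35 to 0.20. For rRNAs they were MT-RNR1 -0.55 to 0.27 and MT-RNR2 -0.49 to 0.22. For tRNAs they were MT-TF -0.44 to 0.32, MT-TV -0.27 to 0.29, MT-TL1 -0.15 to 0.20, MT-TI -0.12 to 0.50, MT-TQ -0.19 to 0.51, MT-TM -0.24 to 0.27, MT-TW -0.20 to 0.55, MT-TA -0.35 to 0.13, MT-TN -0.31 to 0.14, MT-TC -0.27 to 0.20, MT-TY -0.27 to 0.14, MT-TS1 -0.0719 to 0.20, MT-TD -0.23 to 0.18, MT-TE -0.22 to 0.26, MT-TT -0.24 to 0.10 and MT-TP -0.45 to 0.16. The cause was not tested. Counts of 46 to 419 a library make the values of the low heavy-strand tRNAs less exact, and the part of depth in these ranges was not tested.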
